A study of Drosophila melanogaster with 8 samples.

Results

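Eye discs of the mir-11 KO(w-) stock were compared with those of the wild-type strain Canton S, with 2 libraries of each stock among the 8 libraries of the series. The 4 libraries were taken by their labels alone, and of 15682 genes in the tables the 11068 with enough counts were tested. Eye discs are the paired epithelial sacs of the larva that give rise to the adult eye, the antenna and the surrounding head cuticle. They came from larvae of the third instar reared at 25 °C, in pools of 30 to 50 discs per sample. The label "w-" commonly denotes a stock that lacks function of white, an eye colour gene, while Canton S is red-eyed. The sources used here give neither the allele that removed mir-11, nor the number of independent lines, nor the sex of the larvae, so the effect of mir-11 and that of the strain background cannot be told apart. The other 4 libraries, from the stocks RMCE-1 and RMCE-2, entered the fit only to estimate the spread between replicates.

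MicroRNAs are short RNAs that guide Argonaute proteins to partly complementary sites, mostly in the 3′ untranslated parts of messenger RNAs, and thereby lower the stability and translation of those messengers. In Drosophila miR-11 is processed from an intron of E2f1, whose protein drives entry into S phase and can also drive apoptosis. Its reported targets are hid, rpr, skl and grim, whose products trigger apoptosis. The neighbouring hairpin, mir-998, lies in the same intron, and Cbl, which encodes a ubiquitin ligase that dampens EGFR signalling, has been reported as a target of miR-998.

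Levels are given as CPM, the share of a library's counts that fell on a gene times a fixed constant, after scaling between libraries. Differences are log2 fold changes of the knockout stock over Canton S, printed as estimate ± standard error. A gene was called where the edgeR quasi-likelihood test gave a Benjamini-Hochberg adjusted p under 0.05 over all genes tested. The Canton S libraries held 19670470 and 19157088 counts in total and the knockout libraries 18290314 and 16656252. Genes that define the tissue were present in all 4 libraries. The eye-determining genes ey, eya and so lay at 60.05 to 243 CPM, the neuronal gene elav between 158 and 204 CPM, and Dll, which marks the antennal part, between 68.7 and 88.3 CPM. In a pool of discs, fewer cells of a type and less RNA per cell cannot be told apart.

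The targeted gene could not serve as a check of the label. The mir-11 hairpin (3R 21622497 to 21622571 in BDGP6.54, as are all positions here) lies in the intron before the last exon in each of the 6 E2f1 transcripts of the annotation, and it had 2 and 0 reads in the Canton S libraries and none in those of the knockout stock. Its loss was therefore not detectable at this depth. The host gene E2f1 (FBgn0011766, 3R 21620304 to 21660871) stood at 220.01 and 209.6 CPM in Canton S against 228 and 230.4 CPM with the knockout. Its libraries were slightly higher in the knockout stock without a call (log2 fold change 0.09 ± 0.06, adjusted p = 0.409). The mir-998 hairpin was not called either, with a log2 fold change of -0.39 ± 0.37 (adjusted p = 0.598). The gene white (w), which encodes a transporter of pigment precursors, stood at 0.428 and 0.713 CPM in the knockout libraries against 43.7 and 34.6 CPM in the Canton S pair. Both knockout libraries were thus close to 0 for w, as the label "w-" has it (log2 fold change -6.09 ± 0.27, adjusted p = 0.000515), and kirre overlaps w on the other strand.

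None of the 5 reported targets was called by edgeR or DESeq2 or had an unadjusted p under 0.05, and the median of their log2 fold changes was -0.16, against 0.01 over all 11068 genes tested. The apoptosis inducer hid stood at 49.2 and 55.3 CPM in the Canton S libraries and 46.1 and 49.1 CPM in those of the knockout stock. These libraries lay close together, with those of the knockout stock slightly lower (log2 fold change -0.13 ± 0.16, adjusted p = 0.689). Transcripts of rpr were found at 7.89 and 8.76 CPM in Canton S against 8.35 and 6.53 CPM with the knockout, with overlapping libraries (log2 fold change -0.16 ± 0.52, adjusted p = 0.892). The log2 fold change was -0.70 ± 0.86 (adjusted p = 0.69) for grim, -0.71 ± 0.88 (adjusted p = 0.698) for skl and 0.03 ± 0.07 (adjusted p = 0.862) for Cbl. Only for hid did both knockout libraries lie on the same side of both Canton S libraries. They lay below, as in 27.2% of all genes tested.

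Among 15 genes that execute or restrain apoptosis, 2 were called lower and none higher, where 4.75% of all genes tested were called in either direction. Both encode caspases, the proteases that carry out cell death. Dronc, the initiator caspase, stood at 83.5 and 82.8 CPM in the knockout libraries against 139 and 142 CPM in the Canton S pair. The knockout libraries were lower by a wide margin relative to the spread of either stock (log2 fold change -0.76 ± 0.08, adjusted p = 0.00438). Strica, another caspase gene, stood at 15.3 and 17.6 CPM in the Canton S libraries and 9.42 and 9.09 CPM in those of the knockout stock (log2 fold change -0.83 ± 0.13, adjusted p = 0.0189), and Pngl overlaps it on the other strand. The effector caspase gene Drice was at 97.0 and 110.3 CPM in Canton S against 105 and 108 CPM with the knockout, with overlapping libraries and no call. Without either knockout library the calls of Dronc and Strica were lost, and that of Strica was also lost without Canton S replicate 2 (adjusted p up to 0.0617 and 0.155).

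Against 4.75% of all genes tested, 1 of 10 genes of the E2F and RB complexes was called, lin-52. It encodes a subunit of the dREAM complex, which represses E2F-regulated genes, and stood at 13.2 and 11.9 CPM in the knockout libraries against 22.4 and 21.5 CPM in the Canton S pair. Both knockout libraries were lower (log2 fold change -0.81 ± 0.10, adjusted p = 0.00673), a call lost without either of them (adjusted p up to 0.0756). CG15772 overlaps lin-52 on the other strand and fell too, from 10.8 and 11.1 to 1.39 and 0.594 CPM (log2 fold change -3.44 ± 0.45, adjusted p = 0.0097). It was not called when Canton S replicate 2 or knockout replicate 2 was left out (adjusted p up to 0.0686). No source used here gives the strand setting of the counting, so reads of the pair cannot be told apart with certainty. The E2f1 partner gene Dp stood at 171 and 177 CPM in the Canton S libraries and 207 and 199 CPM in those of the knockout stock without a call (adjusted p = 0.0799).

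Across the transcriptome, 526 of 11068 genes were called between the stocks, of which 262 (2.37% of those tested) were higher and 264 (2.39%) lower in the knockout stock. The differences were mostly modest. Their median size was 0.78 on the log2 scale, 172 were under 1.5-fold, 194 reached 2-fold and 74 reached 4-fold. In all 526 the libraries of the stocks did not overlap. Such separation was common among uncalled genes too, since both knockout libraries lay above both Canton S libraries in 32.2% of all genes tested and below them in 27.2%. At the median gene replicates resembled each other closely, with a median absolute log2 difference of 0.09 between the Canton S libraries and 0.07 between the knockout libraries among genes at 5 CPM or more. Some transcripts differed far more. Gut markers summed to 1180 CPM in Canton S replicate 1 and 4.68 CPM in Canton S replicate 2.

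**Figure D1:**
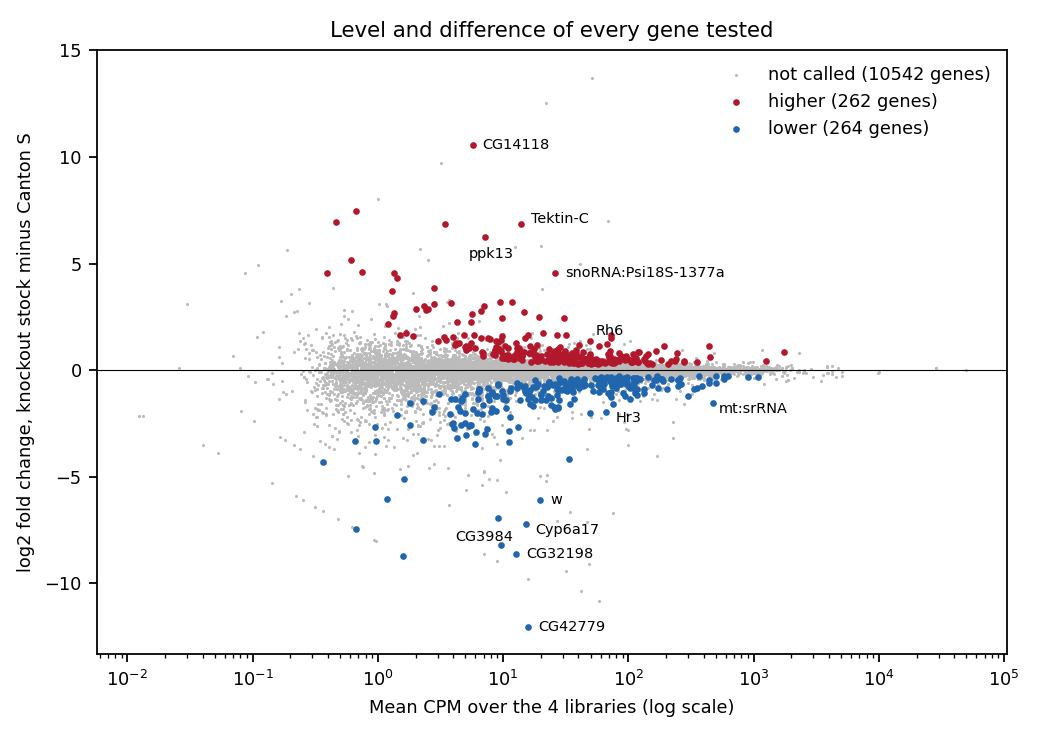
Log2 fold change (knockout stock minus Canton S) against mean CPM over the 4 libraries on a log scale, with 1 point per gene tested. The 262 genes called higher are red, the 264 called lower blue and the rest grey. Fitted fold changes of genes at 0 reads in a stock, such as CG42779 and CG14118, depend on the prior count.

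The number of calls rested on single libraries. It dropped to 219 or 177 when the first or second Canton S library was left out and to 80 or 65 when the first or second knockout library was, whereas a fit of these 4 libraries alone gave 1139. The share of calls that were higher in the knockout stock was 49.8%. It was 38.4% by DESeq2, 34.7% when Canton S replicate 1 was left out and 32.3% when RMCE-1 replicate 2 was left out as well. It was 57.5% or 53.8% without the first or second knockout library and 53.1% with library totals or upper quartile factors. A core of 54 genes, 32 higher and 22 lower, was called in all 18 alternative settings, so its members did not depend on any setting tried.

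**Figure D2:**
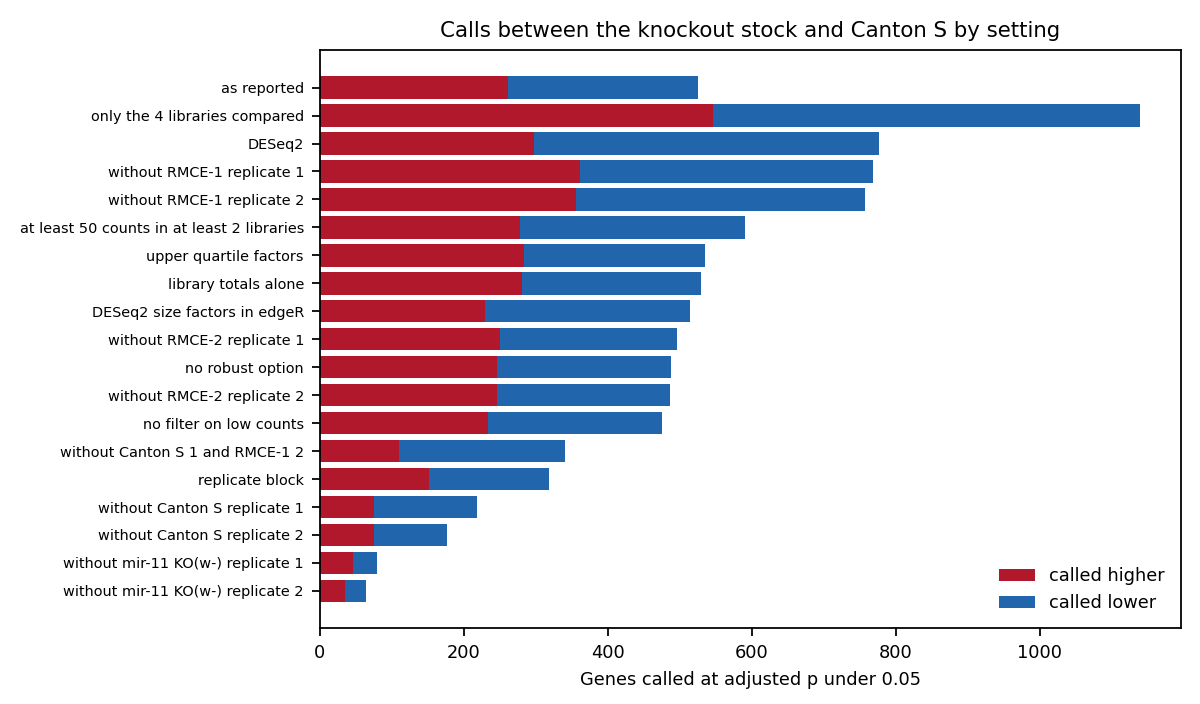
Number of genes called at an adjusted p under 0.05 (horizontal axis) as reported and under each of 18 alternatives. Each bar is split into genes called higher (red) and lower (blue) in the knockout stock. Fits that leave out a library of the 2 stocks compared give the shortest bars, down to 65 genes.

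Several genes were present in one stock and nearly silent in the other. CG42779 (FBgn0261847, 3R 17121577 to 17122087) stood at 39.3 and 24.1 CPM in Canton S against 0 and 0 CPM with the knockout. No read was found in either knockout library, at least 378-fold lower if 3 counts over both libraries are set as the floor (edgeR adjusted p = 0.0135). Its call was lost without either knockout library (adjusted p up to 0.0676) and with DESeq2 (0.145), and it lies within cher on the other strand. CG32198 (FBgn0052198, 3L 18526976 to 18527445) was at 0.107 and 0 CPM in the knockout libraries against 35.9 and 14.995 CPM in the Canton S pair. With 2 reads in the knockout libraries together, the ratio was 459 (exact 95% counting interval 127 to 3790, edgeR adjusted p = 0.00947), and the call was lost without either of these libraries (up to 0.0933) and in the fit of the 4 libraries alone.

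A run of 3 neighbouring genes on 3R fell together. CG6912, CG3984 and CG3987 lie between 15135138 and 15141715 and do not overlap. CG6912 was at 19.5 and 18.5 CPM in the Canton S libraries and 0 and 0.119 CPM in those of the knockout stock, a ratio of 338 (counting interval 93.1 to 2790, edgeR adjusted p = 0.00947). Directly beside it, CG3984 was at 17.9 and 18.5 CPM in Canton S against 0.160 and 0.119 CPM with the knockout, again close to 0 in both knockout libraries (log2 fold change -6.94 ± 0.45, adjusted p = 0.000996). The third, CG3987, was at 1.07 and 1.07 CPM in the knockout libraries against 10.1 and 4.14 CPM in the Canton S pair (log2 fold change -2.72 ± 0.44, adjusted p = 0.0194). The call of CG3984 was held in all 18 alternatives, whereas those of CG6912 and CG3987 were lost without either knockout library (adjusted p up to 0.0819 and 0.168).

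Cyp6a17, a cytochrome P450 gene linked to temperature preference in the fly, stood at 24.8 and 35.4 CPM in the Canton S libraries and 0.267 and 0.119 CPM in those of the knockout stock. Its call (log2 fold change -7.20 ± 0.81, adjusted p = 0.0133) was lost without Canton S replicate 2 or either knockout library (adjusted p up to 0.117). mthl15, which encodes a receptor of the methuselah-like family, stood at 19.6 and 19.6 CPM in Canton S against 2.62 and 2.85 CPM with the knockout, with tight replicates on both sides (log2 fold change -2.84 ± 0.19, adjusted p = 0.00118). GILT3, a gene of the thiol reductase family of lysosomes, was at 1.4980 and 1.66 CPM in the knockout libraries against 12.2 and 13.3 CPM in the Canton S pair (log2 fold change -3.01 ± 0.28, adjusted p = 0.00343), a call lost without either knockout library (up to 0.053). A hairpin RNA gene, hpRNA:CR32207, of the kind that yields short interfering RNAs, was at 10.1 and 8.01 CPM in the Canton S libraries and 1.02 and 1.19 CPM in those of the knockout stock (log2 fold change -3.03 ± 0.35, adjusted p = 0.00642), and its call was lost in the same fits (up to 0.0791). The remaining large falls were CG31522 (log2 fold change -4.16), CG13063 (-3.38), CG13840 (-3.18), CG42566 (-2.92) and AANATL2 (-2.77), the last a gene for an arylalkylamine acetyltransferase. Each of these 5 lost its call when Canton S replicate 2 or either knockout library was left out (adjusted p up to 0.234, 0.17, 0.14, 0.187 and 0.273). All of them but CG13063 and CG42566 were also lost without Canton S replicate 1, and CG31522, CG42566 and AANATL2 without either RMCE-2 library.

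Rises from near silence were seen as well. Tektin-C (FBgn0035638, 3L 5794405 to 5796543), which encodes a filament protein of the axoneme, stood at 0.345 and 0.107 CPM in Canton S against 24.2 and 31.5 CPM with the knockout. Both knockout libraries were far above those of Canton S (log2 fold change 6.87 ± 0.55, adjusted p = 0.00392). Of 8 tested testis and axoneme markers edgeR called Tektin-C alone, DESeq2 also called betaTub85D lower, and Tektin-A had no read in the knockout libraries. Dnaaf3, which encodes a dynein assembly factor, stood at 4.98 and 5.47 CPM in the knockout libraries against 0.543 and 0.161 CPM in the Canton S pair (log2 fold change 3.85 ± 0.53, adjusted p = 0.0116), a call lost without either knockout library (adjusted p up to 0.0926). A pair of neighbours on 2L rose together. CG33509 had 2 reads in the Canton S libraries together and 242 in those of the knockout stock, a ratio of 133 (counting interval 36.4 to 1100, edgeR adjusted p = 0.000917). Beside it ppk13, which encodes a sodium channel of the pickpocket family, was at 0.296 and 0.0537 CPM in the Canton S libraries and 14.7 and 13.5 CPM in those of the knockout stock (log2 fold change 6.24 ± 0.49, adjusted p = 0.00214). It was the only one of 13 tested pickpocket genes to be called.

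CG14118 (FBgn0036323, 3L 12892658 to 12894758) had no read in Canton S and was at 13.1 and 9.86 CPM in the knockout stock, at least 150-fold higher against the floor of 3 counts (edgeR adjusted p = 0.0233). Its call was lost without any 1 of the 4 libraries compared (adjusted p up to 0.112). CG32373 was at 2.66 and 1.99 CPM in Canton S against 21.2 and 21.2 CPM with the knockout (log2 fold change 3.18 ± 0.20, adjusted p = 0.000917), and many genes lie within its span on both strands. On 3L, CG41284 was at 10.3 and 12.8 CPM in the knockout libraries against 1.78 and 1.56 CPM in the Canton S pair (log2 fold change 2.78 ± 0.23, adjusted p = 0.00242) and CG42598 at 1.33 and 1.77 CPM in the Canton S libraries and 12.5 and 12.4 CPM in those of the knockout stock (log2 fold change 2.996 ± 0.20, adjusted p = 0.00118). Together with CG40160 they form a run of 3 neighbours called higher. CG31436 was at 6.51 and 5.16 CPM in Canton S against 33.3 and 32.3 CPM with the knockout (log2 fold change 2.49 ± 0.22, adjusted p = 0.00321). The rises of FBgn0036017 (3.08), FBgn0052822 (3.15) and FBgn0040001 (2.64, log2 fold changes), are of identifiers with no entry in the annotation used. Of these FBgn0052822 lost its call without any 1 of the 4 libraries compared, and FBgn0040001 without either Canton S library or knockout replicate 1 (adjusted p up to 0.0977 and 0.076).

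Genes at 20 CPM or more with the smallest p-values included w and snoRNA:Psi18S-1377a, with large differences, and a group with moderate ones. Lower in that group were veil, which encodes an ectonucleotidase, at 12.1 and 12.5 CPM in the knockout libraries against 42.9 and 42.9 CPM in the Canton S pair (log2 fold change -1.80 ± 0.09, adjusted p = 0.000515), and CG18549 at 40.0 and 40.7 CPM in the Canton S libraries and 10.8 and 12.2 CPM in those of the knockout stock (log2 fold change -1.81 ± 0.11, adjusted p = 0.000843). The choline transporter-like gene Ctl2 was at 131 and 133 CPM in Canton S against 72.4 and 73.5 CPM with the knockout (log2 fold change -0.85 ± 0.07, adjusted p = 0.00271). Alg3, a mannosyltransferase of the N-glycan pathway, was at 14.4 and 13.6 CPM in the knockout libraries against 26.4 and 28.4 CPM in the Canton S pair (log2 fold change -0.97 ± 0.09, adjusted p = 0.00289). It shares its place with CG5504 on the other strand, which was called lower too, and their reads cannot be told apart with certainty. CG6654 was at 16.0 and 14.9 CPM in the knockout stock against 40.5 and 40.3 CPM (log2 fold change -1.38 ± 0.08, adjusted p = 0.000843), and lncRNA:CR43264, a long noncoding RNA, at 12.8 and 10.6 CPM in the knockout stock against 40.2 and 33.4 CPM (log2 fold change -1.65 ± 0.14, adjusted p = 0.00248). In each of these 6 genes the libraries of a stock differed far less than the stocks did, and all 6 were held in all 18 alternatives. Beside Alg3, CG18549 overlaps CG5509 on the same strand. On the other strand veil overlaps CG43110, CG6654 overlaps Mau2 and lncRNA:CR43264 overlaps CG15765.

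The same core held genes of tanning and of the cuticle, picked after their values were seen and not from a list. The gene black (b) encodes the decarboxylase that makes beta-alanine, which is joined to dopamine during tanning of the cuticle, and stood at 99.0 and 107 CPM in the Canton S libraries and 43.4 and 43.7 CPM in those of the knockout stock (log2 fold change -1.24 ± 0.11, adjusted p = 0.0026). The gene tan (t), whose product releases dopamine from that conjugate, stood at 19.9 and 19.8 CPM in Canton S against 7.97 and 6.89 CPM with the knockout (log2 fold change -1.42 ± 0.12, adjusted p = 0.0026). Both were lower by more than 2-fold in each knockout library. The chitinase gene Cht5 was at 9.58 and 12.4 CPM in the knockout stock against 26.6 and 31.5 CPM (log2 fold change -1.41 ± 0.14, adjusted p = 0.004). Of 53 tested genes of cuticle protein families edgeR called 3 lower and 1 higher, or 7.55% against 4.75% of all genes tested. DESeq2 called 9 lower and 2 higher, and 10 and 7 had an unadjusted edgeR p under 0.05. Among them Cpr97Ea, at 2.41 and 2.85 CPM in the knockout stock against 10.4 and 11.7 CPM, was held in all 18 alternatives (log2 fold change -2.07 ± 0.16, adjusted p = 0.002). Cpr66D (-0.93) and Cpr67B (-0.94) were also lower and Cpr97Eb (2.53) higher on the log2 scale, but each of these 3 calls was lost without Canton S replicate 2 or either knockout library, those of Cpr66D and Cpr97Eb also without Canton S replicate 1 (adjusted p up to 0.206, 0.259 and 0.25). The calls of Cpr67B and Cpr97Eb were lost without either RMCE-2 library as well, and that of Cpr97Eb without either RMCE-1 library. The families' median log2 fold change was -0.13, against 0.01 over all genes tested.

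On the higher side, phr, which encodes a photolyase that repairs ultraviolet damage in DNA, stood at 38.0 and 43.7 CPM in the knockout libraries against 12.4 and 13.3 CPM in the Canton S pair (log2 fold change 1.67 ± 0.10, adjusted p = 0.000843) and overlaps Prosalpha1 on the other strand. Its close neighbour CG18853 was at 9.23 and 9.89 CPM in the Canton S libraries and 34.0 and 30.8 CPM in those of the knockout stock (log2 fold change 1.76 ± 0.09, adjusted p = 0.000599). CG18853 overlaps Prosalpha1R on the other strand, which was called higher too, and their reads cannot be told apart with certainty. The gene pastrel (pst), known for resistance of flies to a picorna-like virus, was at 38.7 and 35.6 CPM in Canton S against 107 and 107 CPM with the knockout (log2 fold change 1.53 ± 0.13, adjusted p = 0.00272). CG42673 was at 259 and 270.4 CPM in the knockout libraries against 116 and 127 CPM in the Canton S pair (log2 fold change 1.12 ± 0.07, adjusted p = 0.000917). Acat1, an acetyl-CoA acetyltransferase gene, stood at 32.9 and 39.7 CPM in the Canton S libraries and 76.7 and 84.0 CPM in those of the knockout stock (log2 fold change 1.15 ± 0.10, adjusted p = 0.00271), S1P, which encodes the site-1 protease, at 18.9 and 18.2 CPM in Canton S against 36.5 and 36.1 CPM with the knockout (log2 fold change 0.97 ± 0.09, adjusted p = 0.00272), and the ubiquitin ligase gene Herc4 at 175 and 184 CPM in the knockout libraries against 105 and 105 CPM in the Canton S pair (log2 fold change 0.77 ± 0.06, adjusted p = 0.00186). These 7 genes kept non-overlapping libraries with narrow spread, and all 7 were called in all 18 alternatives. Next to Herc4 lies sturkopf, which encodes a lipid droplet protein, at 93.1 and 93.9 CPM in the knockout stock against 47.0 and 51.8 CPM (log2 fold change 0.92 ± 0.09, adjusted p = 0.00378).

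**Figure D3:**
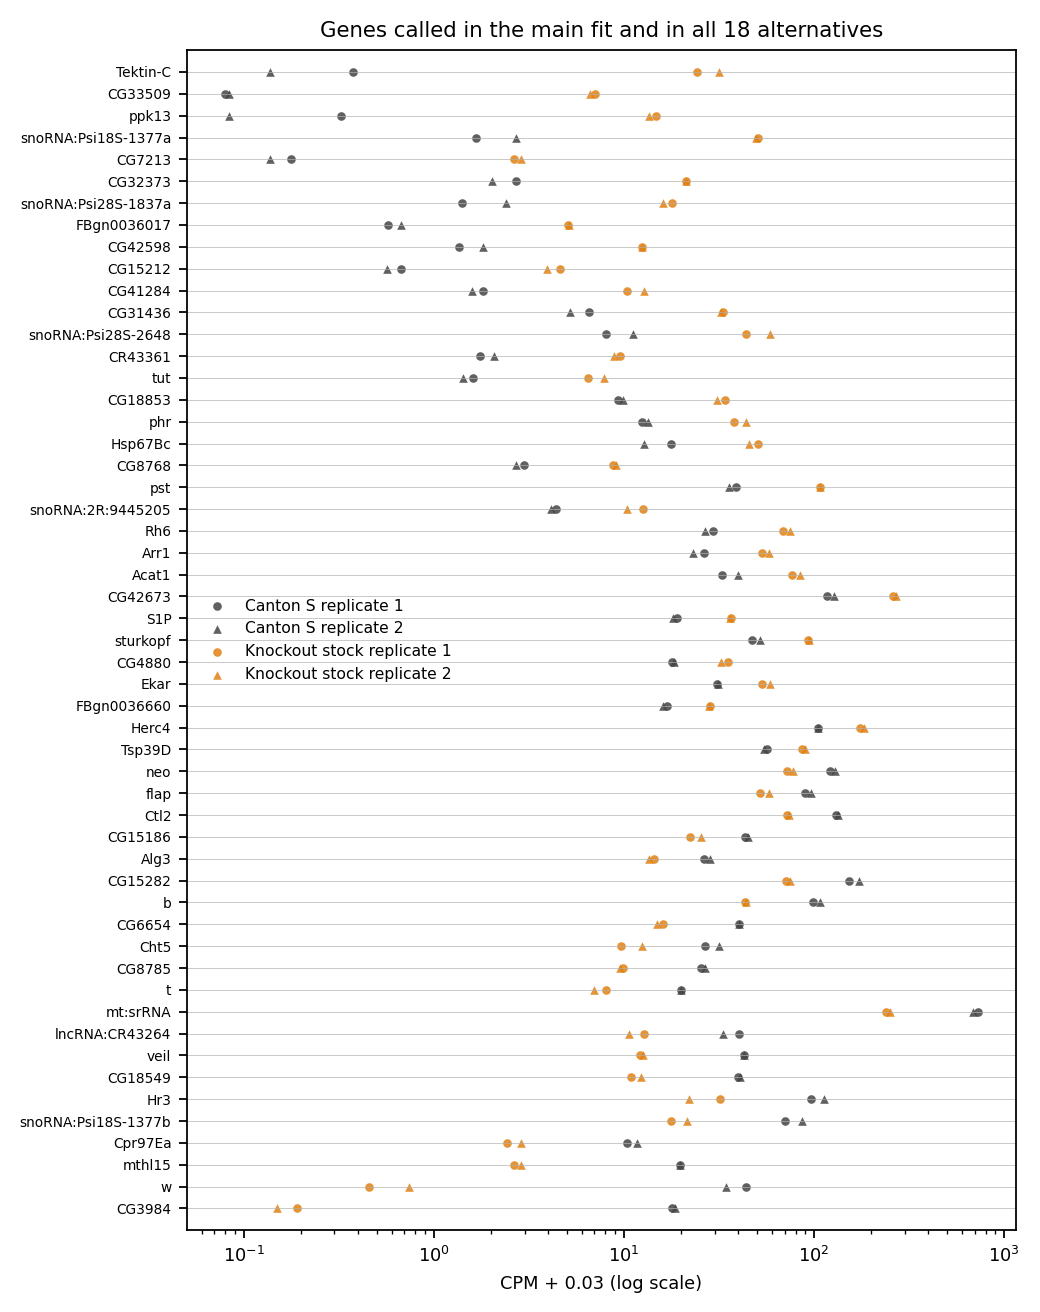
CPM (plus 0.03, log scale) of the 54 genes called as reported and in all 18 alternatives (1 not shown), sorted by fold change, with Canton S libraries in grey and knockout libraries in orange, circles for replicate 1 and triangles for replicate 2. In every row both orange symbols lie on the same side of both grey ones.

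Ecdysone, the steroid hormone whose pulses time the larval stages, acts through a receptor of EcR and Usp and a cascade of early regulators. Of 14 tested members of that list 4 were called lower and none higher, where 2.39% of all genes tested were called lower. The list's median log2 fold change was -0.27, against 0.01 over all genes tested. It was counted without br, for which no identifier was matched. Hr3, a nuclear receptor gene induced late in the cascade, stood at 96.8 and 113 CPM in the Canton S libraries and 31.8 and 22.0 CPM in those of the knockout stock. Both knockout libraries lay far below both of Canton S (log2 fold change -1.96 ± 0.21, adjusted p = 0.00669), and the call was held in all 18 alternatives. Hr4, another nuclear receptor gene, was at 143 and 155 CPM in Canton S against 49.0 and 68.0 CPM with the knockout (log2 fold change -1.35 ± 0.18, adjusted p = 0.012). Eip78C was at 47.9 and 64.9 CPM in the knockout libraries against 120.1 and 143 CPM in the Canton S pair (log2 fold change -1.22 ± 0.19, adjusted p = 0.0234) and Eip75B at 276 and 301 CPM in the Canton S libraries and 196 and 216 CPM in those of the knockout stock (log2 fold change -0.48 ± 0.10, adjusted p = 0.0386), both also encoding nuclear receptors. The receptor genes themselves showed no call, with EcR at 267 and 282 CPM in Canton S against 285 and 289 CPM with the knockout (adjusted p = 0.706) and a log2 fold change of 0.12 for usp. DESeq2 called these 4 regulators and Blimp-1, all lower. The calls of Eip78C and Eip75B were lost without any 1 of the 4 libraries compared (adjusted p up to 0.116 and 0.248). Hr4 was not called without Canton S replicate 2 or knockout replicate 1 (0.069).

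Of 18 tested ecdysone-inducible genes, a separate list, 5 were called lower and none higher, against 2.39% lower among all genes tested. Their median log2 fold change was -0.56. ImpE1, a gene of imaginal discs that encodes a receptor-like membrane protein, was at 230.4 and 234 CPM in the knockout libraries against 434 and 436 CPM in the Canton S pair. The replicates were almost the same and the stocks well apart (log2 fold change -0.91 ± 0.10, adjusted p = 0.00498). The ABC transporter gene E23 stood at 41.8 and 55.3 CPM in the Canton S libraries and 22.7 and 25.0 CPM in those of the knockout stock (log2 fold change -1.03 ± 0.13, adjusted p = 0.00947). Eip63E, which encodes a cyclin-dependent kinase, was at 143 and 142 CPM in Canton S against 107 and 109 CPM with the knockout (log2 fold change -0.40 ± 0.05, adjusted p = 0.0108), and Eip63F-1, which encodes a calcium-binding protein, at 16.9 and 21.4 CPM in the knockout libraries against 33.0 and 37.4 CPM in the Canton S pair (log2 fold change -0.88 ± 0.15, adjusted p = 0.0261). The fifth was Dronc, described above. ImpE2 was at 1399 and 1557 CPM in the Canton S libraries and 922 and 975 CPM in those of the knockout stock and was not called by edgeR (adjusted p = 0.0675), while DESeq2 called it and Sb lower beside the 5. Leaving out either knockout library ended the calls of ImpE1 and E23 (adjusted p up to 0.0676 and 0.0948). Those of Eip63E and Eip63F-1 were lost without any 1 of the 4 libraries compared (0.108 and 0.17).

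Markers of larval tissues that also respond to ecdysone lay lower in the same libraries. The 14 salivary gland markers had a summed level of 2410 and 1582 CPM in the Canton S libraries and of 748 and 599 CPM in those of the knockout stock. The 11 fat body markers summed to 1046 and 710 CPM and to 287 and 107 CPM. None of these 25 genes was called by edgeR, with 1 at an unadjusted p under 0.05, and none was at 0 in any library. DESeq2 called 1 of them lower, CrebA, which encodes a regulator of secretion. Their part in the ecdysone result was not tested. In the sums of both marker lists Canton S replicate 1 was highest, and both Canton S libraries lay above both knockout libraries.

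**Figure D4:**
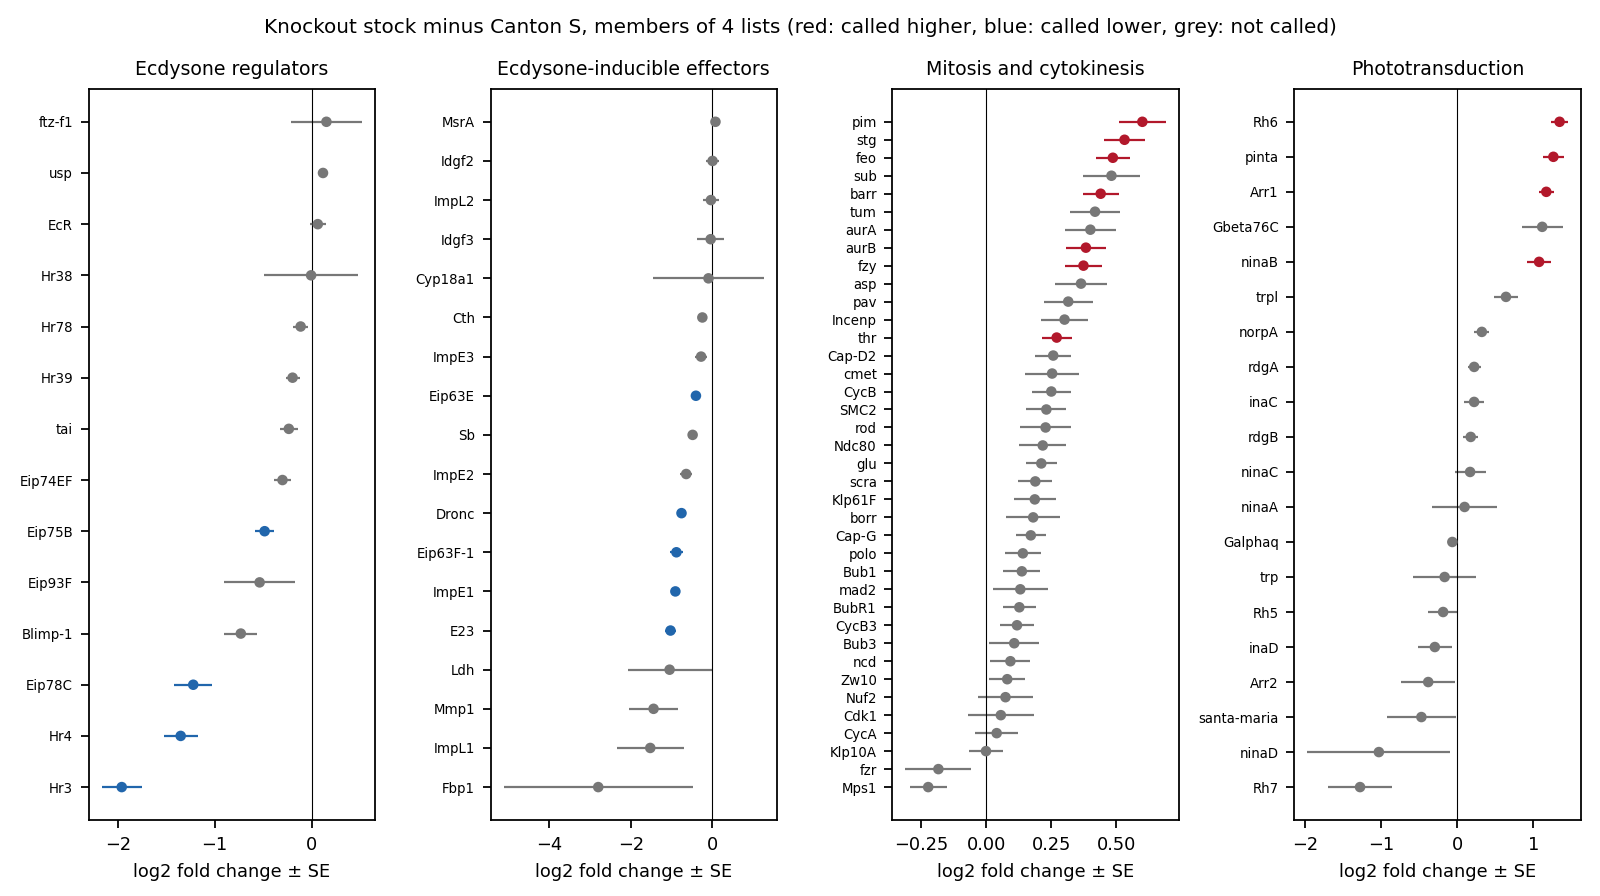
Log2 fold change (knockout stock minus Canton S) with its standard error for the tested members of the ecdysone regulators, the ecdysone-inducible genes, the mitosis genes and the phototransduction genes. Members called higher are red, called lower blue and not called grey, and each panel has its own horizontal scale. Hr3 lies lowest among the regulators, at -1.96, and Rh6 highest among the phototransduction genes, at 1.35.

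Genes of mitosis and cytokinesis lay slightly higher in the knockout stock. Of 38 tested members 7 were called higher and none lower, where 2.37% of all genes tested were called higher. The median log2 fold change was 0.21. In 34 both knockout libraries were above both Canton S libraries, a pattern seen in 32.2% of all genes tested. stg, which encodes the Cdc25 phosphatase that triggers mitosis, stood at 186 and 207 CPM in Canton S against 279 and 289 CPM with the knockout (log2 fold change 0.53 ± 0.08, adjusted p = 0.0148). The securin gene pim was at 28.2 and 30.2 CPM in the knockout libraries against 20.2 and 18.3 CPM in the Canton S pair (log2 fold change 0.60 ± 0.09, adjusted p = 0.015), and thr, which encodes the separase that pim restrains, was at 45.7 and 45.4 CPM in the Canton S libraries and 55.2 and 54.8 CPM in those of the knockout stock (log2 fold change 0.27 ± 0.06, adjusted p = 0.0493). The midzone protein gene feo was at 84.8 and 86.2 CPM in Canton S against 116 and 123 CPM with the knockout (log2 fold change 0.49 ± 0.07, adjusted p = 0.0111). The condensin subunit gene barr stood at 82.4 and 86.3 CPM in the knockout libraries against 61.2 and 63.0 CPM in the Canton S pair (log2 fold change 0.44 ± 0.07, adjusted p = 0.017) and fzy, whose product activates the anaphase-promoting complex, at 63.0 and 62.0 CPM in the Canton S libraries and 82.0 and 79.9 CPM in those of the knockout stock (log2 fold change 0.37 ± 0.07, adjusted p = 0.0309), with cact on the other strand of fzy. The Aurora B kinase gene aurB was at 28.6 and 29.7 CPM in Canton S against 38.8 and 37.2 CPM with the knockout (log2 fold change 0.38 ± 0.08, adjusted p = 0.0396). All 7 were small, from 0.27 for thr to 0.60 for pim on the log2 scale. The count of 7 fell to 1 (stg) without Canton S replicate 2 and to 0 without Canton S replicate 1 or either knockout library, and it was 2 without both Canton S replicate 1 and RMCE-1 replicate 2 (by edgeR). DESeq2 called 7 members too, with asp and tum in place of aurB and thr. The calls of aurB and thr were also lost without either RMCE-2 library and with DESeq2 (DESeq2 adjusted p = 0.0739 and 0.18).

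None of 23 genes of DNA replication and S phase was called by edgeR or DESeq2, 1 on each side had an unadjusted p under 0.05, and their median log2 fold change was 0.03. The Cdk inhibitor gene dap was at 139 and 143 CPM in the knockout libraries against 125 and 124 CPM in the Canton S pair (adjusted p = 0.24) and dUTPase at 109 and 113 CPM in the Canton S libraries and 121 and 114 CPM in those of the knockout stock (adjusted p = 0.74). Replication-dependent histone genes (111 tested), cytosolic ribosomal protein genes (82), mitochondrial ribosomal protein genes (70) and genes of nucleolar ribosome assembly (22) also held no call, with medians of 0.04, 0.07, 0.06 and 0.02. At an unadjusted p under 0.05 there were 0, 9, 6 and 2 members higher and 0, 1, 3 and 2 lower. DESeq2 called 2 of these genes, RpL4 and RpL8, both higher. Near-identical histone copies may share reads. The growth regulator gene Myc was at 394 and 380.2 CPM in Canton S against 473 and 485 CPM with the knockout, higher in both knockout libraries but not called (adjusted p = 0.273).

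Phototransduction genes, whose products capture light and relay the signal in adult photoreceptors, were mostly low at this stage, and 5 of the 25 listed were too low to be tested. Of the other 20, 4 were called higher and none lower, where 2.37% of all genes tested were called higher. Over the 20 the log2 fold change was positive in 12 and negative in 8, with a median of 0.17. Rh6, the rhodopsin gene of a subset of R8 photoreceptors, stood at 68.3 and 74.8 CPM in the knockout libraries against 29.6 and 26.7 CPM in the Canton S pair. The knockout libraries were more than 2-fold higher (log2 fold change 1.35 ± 0.11, adjusted p = 0.00236). The arrestin gene Arr1, whose product ends the rhodopsin signal, was at 26.2 and 23.1 CPM in the Canton S libraries and 53.4 and 57.7 CPM in those of the knockout stock (log2 fold change 1.17 ± 0.10, adjusted p = 0.0026). The other calls were of genes of chromophore supply. The gene pinta, which encodes a retinoid-binding protein, was at 7.80 and 7.09 CPM in Canton S against 16.5 and 19.4 CPM with the knockout (log2 fold change 1.27 ± 0.14, adjusted p = 0.00558), and the carotenoid oxygenase gene ninaB was at 6.63 and 6.95 CPM in the knockout libraries against 3.26 and 3.17 CPM in the Canton S pair (log2 fold change 1.08 ± 0.16, adjusted p = 0.0142), with Adgf-D and f-cup on the other strand of ninaB. Rh5 was at 13.2 and 15.2 CPM in the Canton S libraries and 10.3 and 14.7 CPM in those of the knockout stock and was not called (adjusted p = 0.634). Rh6 and Arr1 were held in all 18 alternatives, while pinta lost its call without knockout replicate 2 (adjusted p = 0.0617) and ninaB without any 1 of the 4 libraries compared (up to 0.119).

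In the lists of eye identity, patterning and pigment genes at most 4.76% were called by edgeR, against 4.75% of all genes tested. None of 12 retinal determination genes was called by edgeR or DESeq2, though 5 were higher and 1 lower at an unadjusted p under 0.05. In 9 both knockout libraries were above both Canton S libraries, a pattern found in 32.2% of all genes tested. The list's median log2 fold change was 0.17, with so at 60.047 and 66.7 CPM in Canton S against 79.6 and 81.0 CPM with the knockout (adjusted p = 0.0844). In the list of furrow and neuronal fate genes 1 of 21 was called, the spalt-related gene salr, at 55.9 and 63.7 CPM in the knockout libraries against 44.9 and 46.0 CPM in the Canton S pair (log2 fold change 0.39 ± 0.08, adjusted p = 0.041), and that call was lost without any 1 of the 4 libraries compared or RMCE-2 replicate 2 (up to 0.25). DESeq2 called salr and emc, both higher. The proneural gene ato was at 41.0 and 43.6 CPM in the Canton S libraries and 51.8 and 52.9 CPM in those of the knockout stock, higher in both knockout libraries without a call (adjusted p = 0.0678). Of 21 tested eye pigment genes edgeR called w alone, and DESeq2 called w and kar, both lower.

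Among 11 antennal genes 2 were called higher and 1 lower, where 4.75% of all genes tested were called. dan and danr, a pair of neighbouring genes that specify antennal identity, stood at 66.9 and 66.6 CPM in Canton S against 93.4 and 93.2 CPM with the knockout (log2 fold change 0.48 ± 0.06, adjusted p = 0.00642) and at 85.9 and 90.1 CPM in the knockout libraries against 65.7 and 70.0 CPM in the Canton S pair (log2 fold change 0.38 ± 0.07, adjusted p = 0.0299). The knockout libraries of both lay above those of Canton S, and lobo overlaps dan on the other strand. The homeobox gene ct went the other way, at 134 and 124 CPM in the Canton S libraries and 98.5 and 98.7 CPM in those of the knockout stock (log2 fold change -0.39 ± 0.07, adjusted p = 0.0268). The call of dan was lost without either knockout library and those of danr and ct without any 1 of the 4 libraries compared (adjusted p up to 0.0746, 0.213 and 0.187). The call of ct was also lost when library totals alone set the scale, though its direction stayed. Dll, ss and hth were not called (adjusted p = 0.0851, 0.0723 and 0.829).

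No member was called by edgeR in the lists of EGFR and Sevenless signalling (23 tested), Notch (14), the Brd and E(spl) complexes (14), Hippo and growth (17), Wingless and JAK-STAT (16), JNK and wound response (17), and septate junctions (14). Their median log2 fold changes lay between -0.02 and 0.19, the last for the Brd and E(spl) genes. Each list held at most 3 members higher and 2 lower at an unadjusted p under 0.05, and DESeq2 called msn and cora lower. The Hippo list was counted without dachs, and the Notch list without Dl, since their short symbols were ambiguous. Of these dachs was itself called higher (log2 fold change 0.81 ± 0.08, adjusted p = 0.00422). Also left out, with no identifier matched, were wg (Wingless), ds and bantam (Hippo), Psn (Notch), and Nrg and Mcr (septate junctions). The receptor gene Egfr was at 376 and 401 CPM in Canton S against 363 and 387 CPM with the knockout (adjusted p = 0.722) and N, the Notch receptor gene, at 778 and 867 CPM in the knockout libraries against 910.1 and 1004 CPM in the Canton S pair (adjusted p = 0.18). The libraries of the stocks overlapped for Egfr and not for N.

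Small nucleolar RNAs guide the chemical modification of ribosomal RNA, and most are cut from introns of host genes. Of 205 tested 11 were called higher and 10 lower, or 10.24% against 4.75% of all genes. DESeq2 called 13 higher and 11 lower. Leaving out 1 of the 4 libraries compared brought the edgeR counts to between 4 and 7 higher and between 1 and 6 lower. The copies of a single guide family in the introns of RpS7 on 3R moved in opposite directions. snoRNA:Psi18S-1377a (30207745 to 30207883) was at 1.63 and 2.69 CPM in the Canton S libraries and 50.6 and 49.7 CPM in those of the knockout stock (log2 fold change 4.54 ± 0.20, adjusted p = 0.000515). Its neighbour snoRNA:Psi18S-1377b (30207493 to 30207630) was at 70.1 and 87.0 CPM in Canton S against 17.8 and 21.4 CPM with the knockout (log2 fold change -2.002 ± 0.15, adjusted p = 0.00186). The copies c and e were lower as well, with log2 fold changes of -1.002 ± 0.13 (adjusted p = 0.0097) and -1.07 ± 0.12 (adjusted p = 0.00558) by edgeR. Copies a and b were held in all 18 alternatives. That of e was lost without either knockout library, and that of c without these or Canton S replicate 2 (adjusted p up to 0.0749 and 0.0974). Near-identical copies may share reads, so a rise of copy a is not by itself a rise of the guide.

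Other guides rose with the same consistency. snoRNA:Psi28S-1837a was at 17.9 and 16.0 CPM in the knockout libraries against 1.38 and 2.36 CPM in the Canton S pair (log2 fold change 3.18 ± 0.23, adjusted p = 0.00183) and snoRNA:Psi28S-2648, in RpL36A, at 8.04 and 11.1 CPM in the Canton S libraries and 44.0 and 58.8 CPM in those of the knockout stock (log2 fold change 2.42 ± 0.21, adjusted p = 0.00321). The ribosomal protein genes RpS7 and RpL36A were not called. Elsewhere Uhg3 and a snoRNA that overlaps it, snoRNA:Me28S-C2645b, were both called higher. Lower together were Sf3b3 with snoRNA:Me28S-C788a and CG10936 with snoRNA:Or-aca4, which also overlap. In the mitochondrial genome, mt:srRNA, the small ribosomal RNA, was the only one of 20 tested genes to be called. It stood at 729.9 and 684 CPM in Canton S against 239 and 250.4 CPM with the knockout (log2 fold change -1.53 ± 0.09, adjusted p = 0.000843), held in all 18 alternatives. The large ribosomal RNA gene mt:lrRNA stood at 49928 and 49808 CPM in the knockout libraries against 47715 and 50334 CPM in the Canton S pair and mt:CoI, which encodes a cytochrome oxidase subunit, at 10016 and 10472 CPM in the Canton S libraries and 9498 and 9362 CPM in those of the knockout stock, with adjusted p-values of 0.911 and 0.402. These libraries were depleted of ribosomal RNA, and a part of that step in the value of mt:srRNA was not tested.

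Of 25 tested antimicrobial and immune genes edgeR called 2 higher and none lower, where 2.37% of all genes tested were called higher. The median log2 fold change was 0.66. In 16 both knockout libraries were above both Canton S libraries, a pattern found in 32.2% of all genes tested. The attacin gene AttA stood at 4.88 and 2.85 CPM in Canton S against 20.9 and 29.8 CPM with the knockout (log2 fold change 2.71 ± 0.38, adjusted p = 0.0184) and the cecropin gene CecA2 at 3.32 and 3.80 CPM in the knockout libraries against 0.543 and 0.430 CPM in the Canton S pair (log2 fold change 2.85 ± 0.52, adjusted p = 0.0291). Both lost their calls without any 1 of the 4 libraries compared (adjusted p up to 0.11 and 0.164). The diptericin gene DptA was at 1.38 and 0.699 CPM in the Canton S libraries and 188 and 83.8 CPM in those of the knockout stock. Both knockout libraries were far higher and unlike each other, and no call was made (adjusted p = 0.172). DESeq2 called 9 members higher and 1, PGRP-SC2, lower.

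Hemocyte markers, which mark blood cells, had a summed level of 1210 and 1574 CPM in the Canton S libraries and of 905 and 1071 CPM in those of the knockout stock. Of 17 tested edgeR called 1 higher and 1 lower, or 11.76% against 4.75% of all genes tested. DESeq2 called 1 higher and 4 lower (Pxn, eater, Glt and srp), and at an unadjusted edgeR p under 0.05 there were 1 higher and 9 lower. Pxn, which encodes the matrix enzyme peroxidasin, was at 128 and 175 CPM in Canton S against 76.2 and 90.1 CPM with the knockout (log2 fold change -0.87 ± 0.16, adjusted p = 0.0319). The phagocytosis receptor gene NimC1 moved the other way, at 9.74 and 9.92 CPM in the knockout libraries against 2.47 and 4.51 CPM in the Canton S pair (log2 fold change 1.49 ± 0.28, adjusted p = 0.0332). The call of Pxn depended on Canton S replicate 2, on each knockout library, on each RMCE-2 library and on the fit with all 8 libraries. That of NimC1 depended on Canton S replicate 1, each knockout library and each RMCE-2 library (adjusted p up to 0.203 and 0.187 without 1 of these). In 13 of the 17 markers both knockout libraries were below both Canton S libraries, a pattern found in 27.2% of all genes tested. The part of blood cells in the immune values was not tested.

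Markers of the gut stood apart in a single library. The 22 gut markers had a summed level of 1180 CPM in Canton S replicate 1 against 4.68 CPM in Canton S replicate 2 and 18.8 and 8.55 CPM in the knockout libraries. Of these 22, 16 were too low in most libraries to be tested and edgeR called none, with none at an unadjusted p under 0.05, while DESeq2 called 4 lower. In the muscle list 1 of 18 was called and in the tracheal list 1 of 9, or 5.56% and 11.11% against 4.75% of all genes tested. The muscle call was the troponin C gene TpnC73F, at 263 and 264 CPM in the Canton S libraries and 131 and 150.00 CPM in those of the knockout stock (log2 fold change -0.91 ± 0.16, adjusted p = 0.0274). The tracheal call was the regulator gene trh, at 19.4 and 22.1 CPM in Canton S against 10.9 and 8.73 CPM with the knockout (log2 fold change -1.08 ± 0.15, adjusted p = 0.0124). The first call was lost without any 1 of the 4 libraries compared, the second without Canton S replicate 2 or either knockout library (adjusted p up to 0.19 and 0.106). Neuronal markers summed to 1304 to 1705 CPM and glial markers to 947 to 1136 CPM over the 4 libraries. Of these 17 and 13 genes edgeR called none, with 2 lower in each list at an unadjusted p under 0.05, and DESeq2 called 1 lower in each, unc-13 and Gs2.

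**Figure D5:**
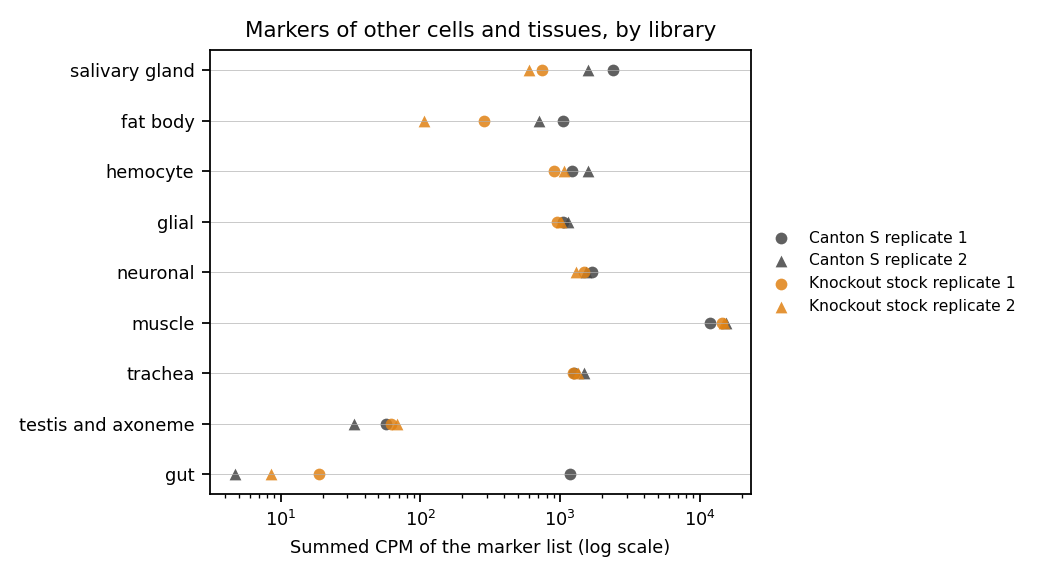
Summed CPM (log scale) of marker lists of other cells and tissues in the 2 Canton S libraries (grey) and the 2 knockout libraries (orange). Gut markers reach 1180 CPM in Canton S replicate 1 alone, and salivary gland and fat body markers are lower in both knockout libraries.

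Among families of enzymes that process foreign and internal compounds, 6.45% of glutathione S-transferase genes and 12.5% of UDP-glycosyltransferase genes were called. The share among all genes tested was 4.75%. Of 31 glutathione S-transferase genes 2 were called higher, GstT1 at 49.3 and 50.9 CPM in the knockout libraries against 34.0 and 30.2 CPM in the Canton S pair (log2 fold change 0.64 ± 0.07, adjusted p = 0.00642) and GstS1 at 186 and 211 CPM in the Canton S libraries and 266 and 273 CPM in those of the knockout stock (log2 fold change 0.44 ± 0.07, adjusted p = 0.0233). Of 65 cytochrome P450 genes 3, or 4.62% against 4.75% of all genes tested, were called, all lower: Cyp6a17, Cyp6d5 (-1.14) and Cyp12e1 (-0.78, log2 fold changes). The families' medians were 0.27 and -0.20. DESeq2 also called GstD1 higher and Cyp12a4 lower. Among 16 UDP-glycosyltransferase genes Ugt49C1 was higher (1.37) and Ugt317A1 lower (-0.67). Of the calls in these families beside Cyp6a17, all were lost without either knockout library, all but that of GstT1 also without Canton S replicate 1, and those of the P450 and UDP-glycosyltransferase genes without Canton S replicate 2 (adjusted p up to 0.0712 for GstT1, 0.174 for GstS1, 0.115 for Cyp6d5, 0.139 for Cyp12e1, 0.212 for Ugt49C1 and 0.237 for Ugt317A1). The call of Ugt49C1 was lost without either RMCE-2 library too. The small heat shock protein gene Hsp67Bc, at 17.7 and 12.7 CPM in Canton S against 50.8 and 45.3 CPM with the knockout, was the only edgeR call among 17 heat shock genes and was held in all 18 alternatives (log2 fold change 1.66 ± 0.17, adjusted p = 0.0047). DESeq2 also called Hsp67Ba lower.

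Among 64 tested chemosensory receptors and binding proteins 3 were called higher and 1 lower, or 6.25% against 4.75% of all genes tested. The receptor gene Ir7g had no read in Canton S and was at 1.66 and 1.01 CPM in the knockout stock, at least 17.6-fold higher (edgeR adjusted p = 0.00893). Leaving out knockout replicate 1 ended that call (adjusted p = 0.0669). Obp19d (2.68) and Gr61a (2.16) were higher and Obp56b (-0.50) lower on the log2 scale, and each lost its call without any 1 of the 4 libraries compared (adjusted p up to 0.11, 0.181 and 0.206). DESeq2 called these 4 and also Obp56e and Obp99a higher.

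Dosage compensation genes raise transcription of the single X of males. Of 12 tested genes of dosage compensation and sex 2 were called higher, where 2.37% of all genes tested were called higher. The gene msl-2 was at 62.2 and 62.6 CPM in the knockout libraries against 42.3 and 46.5 CPM in the Canton S pair (log2 fold change 0.49 ± 0.10, adjusted p = 0.0412). The gene msl-3 was at 29.3 and 28.8 CPM in Canton S against 36.1 and 39.6 CPM with the knockout (log2 fold change 0.38 ± 0.08, adjusted p = 0.0415). Neither was called when any 1 of the 4 libraries compared or either RMCE-2 library was left out (adjusted p up to 0.224 and 0.274), or with the size factors of DESeq2 in the edgeR fit. DESeq2 itself called msl-2 and lncRNA:roX2, both higher, and not msl-3. The noncoding RNA lncRNA:roX1, which guides the complex, was at 605 and 1013 CPM in Canton S against 1495 and 1591 CPM with the knockout. The lowest library was Canton S replicate 1, and there was no call (adjusted p = 0.17). No source used here gives the share of males in each pool, and its part in these values was not tested.

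Called genes were spread over all chromosome arms. The share called was 4.09% on X, 4.49% on 2L, 3.76% on 2R, 5.34% on 3L, 5.38% on 3R, which carries mir-11, and 4.65% on the fourth chromosome. On 3R 53 genes were higher and 82 lower. Around the locus itself, of 179 tested genes that start within 1000 kb of the start of E2f1, 4 were higher and 4 lower, or 4.47%, and the nearest lay 178.5 kb away. Fancm, which encodes a DNA helicase of crosslink repair, was at 61.4 and 63.1 CPM in the knockout libraries against 44.9 and 45.9 CPM in the Canton S pair (log2 fold change 0.45 ± 0.06, adjusted p = 0.00942), and CG5326 at 2.86 and 3.28 CPM in the Canton S libraries and 14.7 and 18.8 CPM in those of the knockout stock (log2 fold change 2.44 ± 0.26, adjusted p = 0.00475). pinta and ND-42 were the other rises. Cortactin, AP-2mu, Nrx-1 and CG31431 fell, with log2 fold changes of -0.37, -0.36, -0.83 and -2.60. Apart from pinta and CG5326, which were lost only without knockout replicate 2, these calls were lost without any 1 of the 4 libraries compared, that of ND-42 also without either RMCE-2 library and that of AP-2mu with library totals as the scale (adjusted p up to 0.222 for ND-42, 0.225 for AP-2mu, 0.186 for Nrx-1, 0.168 for CG31431, 0.16 for Cortactin, 0.1 for Fancm and 0.0506 for CG5326).

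Called genes often had a called neighbour. Of 492 called genes with a position, 90 (18.29%) lay next to another called gene, and so did 8.89% of all genes tested. In 37 of 50 adjacent called pairs both genes moved in the same direction, and 7 of those pairs overlap. The longest run held 5 noncoding genes on X, CR43215 to CR43211 (11589376 to 11599638), all lower. The first of them, CR43215, was at 12.5 and 9.78 CPM in Canton S against 4.98 and 5.58 CPM with the knockout (log2 fold change -1.08 ± 0.20, adjusted p = 0.0309) and the last, CR43211, at 4.39 and 4.69 CPM in the knockout libraries against 10.4 and 10.9 CPM in the Canton S pair (log2 fold change -1.22 ± 0.17, adjusted p = 0.0111). Calls of both were lost without Canton S replicate 2 or either knockout library, and that of CR43215 also without Canton S replicate 1 or either RMCE-2 library (adjusted p up to 0.218 and 0.107). Whether neighbouring noncoding genes of this kind share reads was not tested.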

How the data were processed

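Per the labels' protocols, RNA extracted with Trizol was depleted of ribosomal RNA and made into directional libraries, read as single ends of 50 bp. The deposited values are raw read counts per gene, not normalized by the authors, made with CASAVA 1.8.2, FastQC, TopHat2, Subread and featureCounts, per the submitters' processing notes. No source used here gives the genome build, annotation or strand setting of the counting. Symbols and positions come from the Ensembl annotation of BDGP6.54, which matched 15002 of 15682 identifiers. Samples were grouped by title.

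Counts of all 8 libraries were scaled by TMM (factors 0.9711 to 1.036), filtered by filterByExpr (4614 genes left out, 11068 tested) and fitted with 1 mean per stock in edgeR 4.0.16 (R 4.3.3). Its quasi-likelihood test was run with the robust option, on 4 residual degrees of freedom, and p-values were adjusted after Benjamini and Hochberg. The common biological coefficient of variation was 20.6%. The steps were tested on simulated data. Total counts over the 8 libraries ran from 11929158 to 19670470. Intervals are exact at 95%, and a fold against 0 reads uses 3 counts over the group. Both cover counting error only. Labels call the replicates biological, and p-values measure the spread between these samples. Log2 fold changes are given with standard errors, and each stock has n = 2.

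The lists (32, and 11 families by symbol) and named genes were chosen with earlier results of these data known. Of the planned list members 30 were not matched to a single identifier and were not counted. Named genes are the 15 largest rises and falls at 5 CPM or more in the higher stock, the 10 smallest adjusted p-values in each direction at 20 CPM or more, the locus and reported targets, up to 5 called members per list (or else the 2 highest), and called genes within 1000 kb of E2f1. Genes of the core called in every setting, members of neighbour runs and uncalled list members named for context were chosen after their values were seen. Alternatives were DESeq2 1.42.0, other scalings and filters, fewer libraries and a replicate block. Seed matches were not analysed here. One gene that the rule names is not reported here.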

Additional observations from a re-analysis of the deposited data

How the results depend on the processing

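The count of 526 calls (262 higher, 264 lower, 194 at 2-fold or more) stayed within 1.5 times under 3 other scalings, a fit without the robust option, and the filters of no minimum or at least 50 counts in at least 2 libraries. With only the 4 libraries compared it was 1139 (546 higher, 593 lower, 317 at 2-fold). DESeq2 called 777 genes, 479 lower and 324 at 2-fold, and shared 471 calls with edgeR, all in the same direction. With the replicate block it was 318 (152 higher, 166 lower). Without both Canton S replicate 1 and RMCE-1 replicate 2 it was 341 (110 higher). Leaving out 1 library at a time gave 65 to 768 calls, 35 to 362 higher, 30 to 406 lower and 49 to 255 at 2-fold. A stock left with 1 library is assumed to vary like the others. The causes were not tested. For the named genes, 2239 values stayed on the same side of the threshold, 301 lost and 10 gained a call, and no called value changed direction.

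The replicate block rests on shared numbers alone. Differences between replicates 1 and 2 correlated at 0.24 between Canton S and the knockout stock over 8195 genes, and at -0.40 to -0.06 between the other 5 pairs of stocks, so the samples were not treated as paired. Too few counts left 4614 genes untested, mir-11 among them.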

Other observations

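The genes in this section were picked after their values were seen, and no list of them was counted above. Most small nuclear RNAs are core parts of the spliceosome, and U11, U12 and U4atac belong to the minor form, which removes a rare class of introns. Of 25 tested snRNA genes 3 were called higher and 1 lower, where 4.75% of all genes tested were called. The 3 called higher were U11, U12 and U4atac. snRNA:U11 was at 249.8 and 300.2 CPM in the Canton S libraries and 629.9 and 580.4 CPM in those of the knockout stock (log2 fold change 1.14 ± 0.16, adjusted p = 0.015). snRNA:U12 was at 78.4 and 94.4 CPM in Canton S against 156 and 158 CPM with the knockout (log2 fold change 0.86 ± 0.09, adjusted p = 0.00511). snRNA:U4atac was at 14.3 and 15.1 CPM in the knockout libraries against 6.76 and 7.42 CPM in the Canton S pair (log2 fold change 1.05 ± 0.14, adjusted p = 0.00947). In each of them both knockout libraries were higher by more than 1.5-fold. snRNA:U6atac, the fourth RNA of the minor form, was at 0.691 and 0.914 CPM in the Canton S libraries and 0.802 and 0.594 CPM in those of the knockout stock and was not called (adjusted p = 0.826). One of several copies of a major form RNA, snRNA:U2:34ABa, was lower, at 442 and 356 CPM in the knockout stock against 582 and 643 CPM (log2 fold change -0.62 ± 0.11, adjusted p = 0.0267). Without either knockout library the calls of all 3 minor form RNAs were lost, those of snRNA:U11 and snRNA:U4atac also without Canton S replicate 1, and that of snRNA:U11 without Canton S replicate 2 (adjusted p up to 0.108 for U11, 0.0605 for U12 and 0.0888 for U4atac). That of snRNA:U2:34ABa was lost without either Canton S library or knockout replicate 2 (up to 0.131) and in the fit of the 4 libraries alone.

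Among the genes called lower were several that act on actin filaments. Only 4 of these are named here, one by one, with no count of actin genes tested. Mical, which encodes an enzyme that takes actin filaments apart by oxidation, stood at 412 and 487 CPM in Canton S against 239 and 264 CPM with the knockout (log2 fold change -0.84 ± 0.09, adjusted p = 0.00531). It was not called when knockout replicate 1 was left out (adjusted p = 0.0676). The filamin gene cher was at 477 and 513 CPM in the knockout libraries against 635 and 696 CPM in the Canton S pair (log2 fold change -0.43 ± 0.07, adjusted p = 0.0194), Gel, the gelsolin gene, at 308 and 317 CPM in the Canton S libraries and 177 and 199.96 CPM in those of the knockout stock (log2 fold change -0.73 ± 0.14, adjusted p = 0.0341), and Fim, which encodes the bundling protein fimbrin, at 196 and 190.00 CPM in Canton S against 141 and 140.1 CPM with the knockout (log2 fold change -0.46 ± 0.08, adjusted p = 0.027). The knockout libraries were lower in each, by under 2-fold. Calls of Gel and Fim were lost without any 1 of the 4 libraries compared, that of Gel also without either RMCE-1 library, and that of cher without Canton S replicate 2 or either knockout library (up to 0.22, 0.191 and 0.17).

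lncRNA:let7C, the host transcript of the let-7 microRNAs that mark developmental time, was at 14.1 and 13.1 CPM in the knockout libraries against 34.6 and 33.8 CPM in the Canton S pair (log2 fold change -1.33 ± 0.16, adjusted p = 0.00726), a call lost without either knockout library (adjusted p up to 0.088). The planar growth regulator gene dachs was higher, at 172 and 183 CPM in the Canton S libraries and 299 and 326 CPM in those of the knockout stock (log2 fold change 0.81 ± 0.08, adjusted p = 0.00422), and lost its call without knockout replicate 2 (0.0531). The helicase gene me31B, whose product represses messengers in cytoplasmic granules, was at 481 and 488 CPM in Canton S against 294 and 292 CPM with the knockout (log2 fold change -0.73 ± 0.08, adjusted p = 0.0048), a call lost without either knockout library (up to 0.0652).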
